A study of Felis catus with 2 samples.

Results

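Schwann cells wrap the axons of peripheral nerves, either singly in a compact myelin sheath or in bundles without myelin, and the ciliary body and iridocorneal angle are richly supplied by such nerves. The 6 genes described here stand for that lineage, namely PMP22, S100B, SOX10, MBP, NCAM1 and PRX. They were chosen by name, each matched exactly to the gene name of a row in the deposited table, and all 6 were found on 1 row each among 32065 loci. All 6 also carry the same symbol in the RefSeq gene table of a later cat assembly. SOX10 sets the identity of neural crest glia, PMP22, MBP and PRX build or hold the myelin sheath, and S100B and NCAM1 are carried widely by Schwann cells, NCAM1 above all by those without myelin.

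The tissue came from the eyes of domestic cats and held the iridocorneal angle and ciliary body along with neighbouring sclera and trabecular meshwork. The affected cat had primary congenital glaucoma, a recessive disease of a breeding colony in which affected animals carry 2 copies of a 4-bp insertion in LTBP2, and the unrelated control cat was healthy. Both were 2 months old, and the polyadenylated RNA of each gave 1 library. Replicate error is therefore unknown, differences between the cats have no test, and every value below describes these 2 libraries only.

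Levels are given as FPKM, fragment numbers divided by exon length and by library size, which can be compared between genes because length is divided out. Where a pair of levels is given without further words, the normal library comes first and the affected library second. Log2 ratios are log2 of (affected + 1) over (normal + 1) in FPKM, a scale that understates the differences of low genes. Every count of genes at least 2-fold lower or higher below uses this log2 ratio, at most -1 or at least 1, so a low gene whose plain quotient of FPKM passes 2-fold may not be counted. The comparison across the table used the 16676 loci that reached 1 FPKM in either library, and their median log2 ratio was -0.0047. A single fragment on 1 kilobase of effective transcript length was worth 0.0141 FPKM in the normal library against 0.0148 FPKM in the affected one. The counting intervals below are 95% Poisson intervals for a transcript with 1 kilobase of effective length, since the table gives no transcript lengths, and they cover counting error only. Some 35 loci are listed at 0 for 1 cat but at 10 FPKM or more for the other, so a value of 0 is reported as listed and not as absence.

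PMP22, S100B, NCAM1 and SOX10 were lower in the affected library, by 29.6% to 42.0%, while MBP was 2.35-fold higher and PRX was slightly higher. Among the 6 genes 0 were at least 2-fold lower and 1, MBP, was at least 2-fold higher, against 8.75% and 8.14% of all loci used. The 4 genes with a negative log2 ratio compare with 50.3% of all loci used. The median log2 ratio of the 6 genes was -0.50, and -0.56 over the 5 genes without MBP. In a bulk library, fewer cells of a type and less RNA per cell cannot be told apart.

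**Figure D1:**
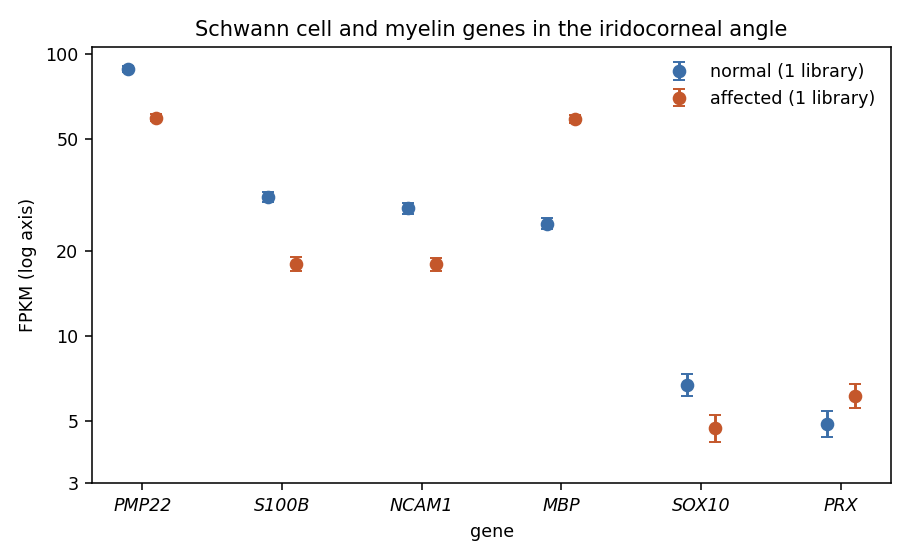
Level of each gene in FPKM on a log axis, in the normal library (blue) and in the affected library (orange), with 1 library per condition. Bars are 95% counting intervals for 1 kilobase of effective length and hold no variation between cats. MBP moves from 25.0 to 58.8 FPKM while PMP22, S100B, NCAM1 and SOX10 are lower in the affected library.

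PMP22 encodes a tetraspan protein of compact peripheral myelin that is also made by fibroblasts and epithelia. It had 88.3 FPKM in the normal library (counting interval 86.1 to 90.5) and 59.5 FPKM in the affected library (57.7 to 61.3), which made it the highest of the 6 in both. The normal level exceeded that of 94.5% of the loci used and the affected level that of 90.9%. The affected level was 0.674 times the normal level, a log2 ratio of -0.56 (-0.62 to -0.51 from counting error). Of all loci used, 19.6% had a lower log2 ratio.

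The PMP22 locus lies on chromosome E1 of felCat5 from 8695069 to 8723508, and no other locus is listed with the same span. Within 5 kilobases of it the table lists 3 unnamed loci, the nearest starting 84 bases past its end. The highest of them, 1631 bases past the end of the PMP22 locus and 792 bases long, had 24.8 FPKM in the normal library against 14.6 FPKM in the affected one. All 3 were lower in the affected library, with log2 ratios of -0.46, -0.73 and -0.64. Whether they belong to the PMP22 transcript was not tested.

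MBP, myelin basic protein, seals the inner faces of the myelin membrane in peripheral and central myelin, and its gene also gives longer transcripts in immune and other cells. It was the only one of the 6 past 2-fold, with 25.0 FPKM in the normal library (23.9 to 26.2) and 58.8 FPKM in the affected library (57.0 to 60.6). Its log2 ratio was 1.20 (1.12 to 1.28 from counting error), and 5.66% of all loci used had a higher value. When only the 3326 loci whose mean level was within 2-fold of MBP were taken, the share was 5.59%. The locus spans 92578 bases of chromosome D3, from 93195764 to 93288341, with no other locus listed within 5 kilobases. The deposited value is a sum over the locus, so the share of each MBP transcript was not analysed here.

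PRX encodes periaxin, which ties the Schwann cell membrane to its cytoskeleton in the myelinated internode and is also a membrane protein of lens fibres. It had 4.86 FPKM in the normal library (4.36 to 5.40) and 6.12 FPKM in the affected library (5.54 to 6.73). The counting intervals do not overlap for a transcript of the assumed length, but the log2 ratio of 0.28 (0.11 to 0.45) was exceeded by 31.2% of the loci used. PRX lies on chromosome E2 from 13664683 to 13679681. The locus ENSFCAG00000028527 is listed with the same span and had 12.5 FPKM in the normal library against 14.7 FPKM in the affected one, a log2 ratio of 0.22. The library kit does not mark strand, so reads shared by overlapping transcripts cannot be told apart, and the same holds for SOX10.

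SOX10, the transcription factor that specifies and maintains neural crest glia and melanocytes, was among the 2 lowest genes of the set in both libraries. It had 6.69 FPKM in the normal library (6.10 to 7.32) and 4.71 FPKM in the affected library (4.20 to 5.25). Its log2 ratio was -0.43 (-0.60 to -0.26 from counting error), and 24.8% of all loci used had a lower one.

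The SOX10 locus on chromosome B4, from 133870343 to 133961438, shares its listed span with POLR2F, C22orf23 and ENSFCAG00000004281. POLR2F, a subunit of the RNA polymerases, had 150.5 FPKM in the normal library against 119.2 FPKM in the affected one. C22orf23 had 5.15 and 3.71 FPKM, and ENSFCAG00000004281 13.4 and 9.56 FPKM. The log2 ratios of these 3 were -0.33, -0.39 and -0.45, close to that of SOX10 itself, and the part of overlapping reads in the SOX10 value was not tested. Past the end of this span, 3 short unnamed loci within 5 kilobases were higher in the affected library, with 0.533 and 1.83 FPKM, 0 and 1.23 FPKM, and 0.538 and 2.81 FPKM. Another unnamed locus, 2294 bases from the span, was lower there, with 0.210 and 0.0138 FPKM.

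S100B, a calcium-binding protein that marks Schwann cells and other glia, had the lowest log2 ratio of the set. It had 31.1 FPKM in the normal library (29.8 to 32.4) and 18.0 FPKM in the affected library (17.0 to 19.1). The affected level was 0.580 times the normal level, and 13.6% of all loci used had a log2 ratio below its -0.75 (-0.85 to -0.66 from counting error). Of the 4918 loci whose mean level was within 2-fold of its own, 9.07% were lower. The locus is short, 7776 bases on chromosome C2 from 185852 to 193627. Its nearest listed neighbour, DIP2A, starts 4451 bases past its end and had 11.1 FPKM in the normal library against 12.96 FPKM in the affected one.

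NCAM1, the neural cell adhesion molecule of axons, neurons, non-myelinating Schwann cells and developing muscle, had 28.4 FPKM in the normal library (27.2 to 29.6). In the affected library it had 17.9 FPKM (16.9 to 19.0), a log2 ratio of -0.64 (-0.73 to -0.54 from counting error). Of all loci used, 17.1% had a lower log2 ratio. Its locus is the longest of the set, 313117 bases on chromosome D1 from 10873430 to 11186546, with no other locus within 5 kilobases.

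**Figure D2:**
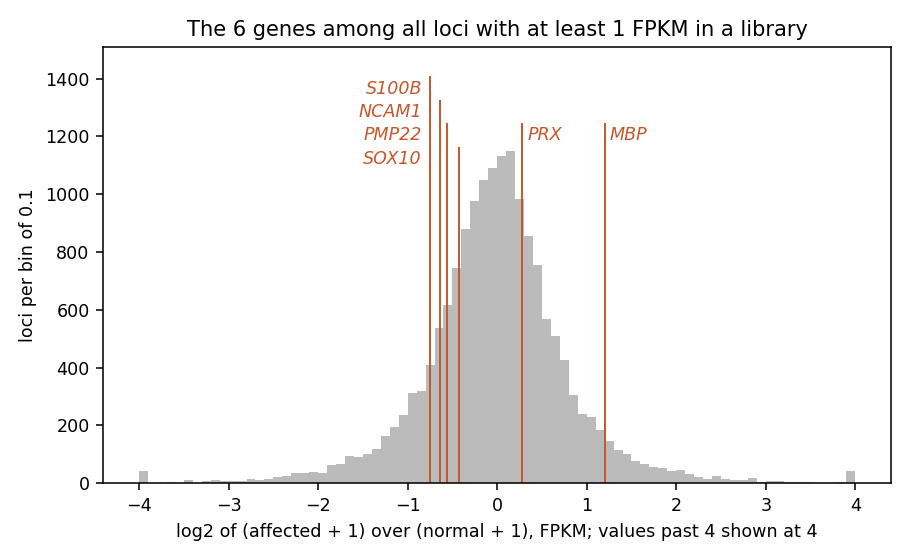
Distribution of the log2 ratio over the 16676 loci used (grey bars, loci per bin of 0.1), with the 6 genes as orange lines. S100B, NCAM1, PMP22 and SOX10 lie between -0.75 and -0.43 on the left shoulder of the distribution, PRX at 0.28 and MBP at 1.20 on its right side.

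The order of the levels differed between the libraries by the place of MBP and by an exchange of SOX10 and PRX. In the normal library it ran PMP22, S100B, NCAM1, MBP, SOX10 and PRX, and no counting intervals of neighbours in this order overlapped. In the affected library it ran PMP22, MBP, S100B, NCAM1, PRX and SOX10. There the intervals of PMP22 and MBP overlapped, as did those of S100B and NCAM1, so these neighbours were not distinguishable by counting error alone.

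Ratios between genes of the same library do not depend on the scaling between the libraries. PMP22, S100B, SOX10 and NCAM1 are grouped here because each was lower in the affected library, so their ratios restate the values above. Among these 4 genes, such ratios shifted by at most 1.21-fold between the libraries, the largest shift being that of SOX10 over S100B. S100B over NCAM1 was 1.10 in the normal library and 1.01 in the affected one. MBP shifted against these 4 genes by 3.34-fold to 4.05-fold, and PRX by 1.79-fold to 2.17-fold. MBP over PMP22 was 0.283 in the normal library and 0.988 in the affected one, and MBP over PRX was 5.14 and 9.61.

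Further proteins of peripheral myelin differed in both directions. The list holds 20 genes with PMP22, MBP and PRX among them, of which 18 had a row of their own and 16 were used. Of the 13 used genes outside the set, 9 were lower in the affected library, where 50.3% of all loci used were lower. On the log2 ratio, 5 of the 13 were at most -1 and 1 was at least 1, against 8.75% and 8.14% of all loci used. The median of these 13 was -0.62, and that of the 16 was -0.58.

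MAL, a myelin and epithelial raft protein, had 35.2 FPKM in the normal library against 6.19 FPKM in the affected one and the lowest log2 ratio of the list, -2.33. MAL thus stood opposite to MBP, although both are myelin proteins.

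NDRG1, a hypoxia-responsive protein that Schwann cells need to keep myelin, had 59.8 FPKM in the normal library against 197.0 FPKM in the affected one, the highest log2 ratio of the list at 1.70. CNP, an enzyme of the uncompacted myelin loops, had 30.2 and 23.8 FPKM. MAG, the adhesion protein of the inner myelin wrap, was below 1 FPKM in both libraries, at 0.274 and 0.130 FPKM. PMP2 had 1.04 and 0.334 FPKM. DRP2, the partner that joins periaxin to dystroglycan, was also below 1 FPKM in both, at 0.928 and 0.141 FPKM.

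Against MAL, MBP shifted from a ratio of 0.711 in the normal library to 9.49 in the affected library. Against CNP it shifted from 0.828 to 2.47. In the normal library MBP was therefore below MAL and CNP, and in the affected library above both. Against NDRG1 it went the other way, from 0.418 to 0.298, and so did its ratio to the gap junction gene GJB1, from 47.8 to 32.5. GJB1 was low, with 0.523 FPKM in the normal library and 1.81 FPKM in the affected one. Its log2 ratio of 0.88 was below the 1.20 of MBP, so this reversal holds for plain quotients only.

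**Figure D3:**
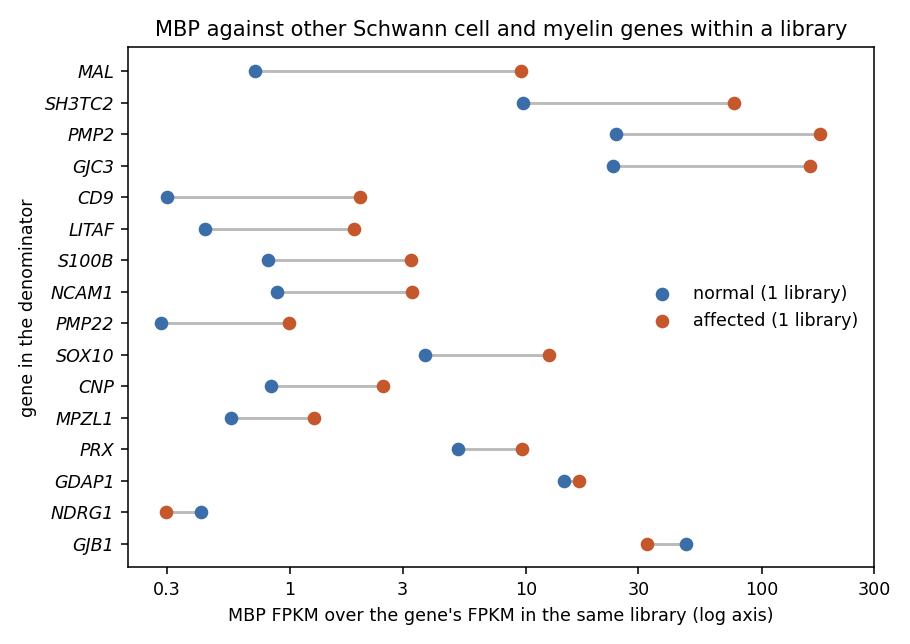
Level of MBP divided by the level of each gene named on the vertical axis, within the normal library (blue) and within the affected library (orange), on a log axis. The 16 genes are the other 5 of the set and 11 used genes of the peripheral myelin list. Of these ratios 14 are higher in the affected library, while those over NDRG1 and GJB1 are lower. The log2 ratio of MBP exceeded that of 94.3% of all loci used. Most genes of any kind would therefore give a higher ratio.

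Regulators of the Schwann lineage moved in both directions. Of 12 used genes, 7 were lower and 5 higher in the affected library, with a median of -0.32 including SOX10, and 50.3% of all loci used were lower. On the log2 ratio 1 of the 12 was at most -1 and 1 at least 1, near the 8.75% and 8.14% of all loci used. JUN, which drives the repair state of injured Schwann cells and is also an immediate early gene of many cells, had 22.0 FPKM in the normal library against 96.1 FPKM in the affected one, a log2 ratio of 2.08. ID2 had 95.7 and 168.5 FPKM, and EGR2, the factor that drives myelination with SOX10, had 0.469 and 1.70 FPKM. ZEB2, a factor required for Schwann cell maturation, had the lowest log2 ratio, with 17.9 and 8.04 FPKM, 2.23-fold lower. NOTCH1 had 9.37 and 4.43 FPKM, with a log2 ratio of -0.93.

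Axonal neuregulin tells Schwann cells to survive and myelinate through the receptors ERBB2 and ERBB3. The ligand NRG1 had 1.51 FPKM in the normal library against 1.37 FPKM in the affected one, and ERBB2, shared with epithelia, 19.6 and 19.7 FPKM. ERBB3, the ligand-binding receptor, had 4.68 and 1.29 FPKM, 3.63-fold lower in the affected library. ADAM22, a receptor of LGI4 on the axon and glial surface, had 3.11 and 0.393 FPKM, and LGI4 itself 19.4 and 10.3 FPKM. DLG1 and FIG4 had the highest log2 ratios of this group, 0.52 and 0.36. Of its 11 used genes 8 were lower, where 50.3% of all loci used were lower. On the log2 ratio 2 were at most -1 and 0 at least 1, against 8.75% and 8.14% of all loci used.

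Genes of immature, non-myelinating and repair Schwann cells were lower for 11 of 17 used genes, and 9 of 15 without S100B and NCAM1. Of all loci used, 50.3% were lower. Of these 15, 4 had a log2 ratio of at most -1 and 0 of at least 1, against 8.75% and 8.14% of all loci used. NGFR, the low-affinity nerve growth factor receptor, had 10.6 FPKM in the normal library against 0.838 FPKM in the affected one, 12.7-fold lower. EDNRB, the endothelin receptor of neural crest cells, had 54.7 and 12.7 FPKM. L1CAM, an adhesion protein of axons and non-myelinating Schwann cells, had 6.35 and 2.88 FPKM.

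In the other direction within this group, ATP1B2, a glial subunit of the sodium pump, had 76.3 FPKM in the normal library against 145.7 FPKM in the affected one. ATF3, an injury-induced factor, had 1.39 and 3.52 FPKM, 2.53-fold higher as a plain quotient, and GFAP 1.54 and 2.36 FPKM. CDH19, a cadherin largely restricted to Schwann cells, had 2.29 and 1.70 FPKM, a log2 ratio of -0.28. ERBB3 and CDH19 were above 1 FPKM in both libraries, at 1.29 and 1.70 FPKM in the affected one. MAG and DRP2 were below 1 FPKM in both libraries, EGR2 in the normal library, and NGFR and PMP2 in the affected library. Whether these levels come from Schwann cells was not tested.

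Proteins of the Schwann basal lamina and its receptors had a median log2 ratio of -0.77, with 12 of 15 used genes lower and 3 with a log2 ratio of at most -1, against 50.3% and 8.75% of all loci used. ITGB4, the integrin subunit of Schwann cells and basal epithelium, had 17.7 and 4.71 FPKM in the normal and affected libraries, and SGCE, a sarcoglycan, 49.2 and 16.5 FPKM. LAMA2, the laminin chain of nerve and muscle, had 10.1 and 6.58 FPKM. LAMB1 had the highest log2 ratio of the list, with 54.6 and 100.9 FPKM, followed by DAG1, which encodes dystroglycan, with 37.4 and 45.1 FPKM. Most of these genes are also expressed by vessels, epithelia and muscle.

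Genes of axons and of the node had medians near 0 and lower shares near the 50.3% of all loci used. Of 15 used axon and neuron genes 8 were lower and 7 higher, with a median of -0.01, and of 13 node, paranode and internode genes 6 were lower and 7 higher, with a median of 0.16. Of the axon and neuron genes 1, THY1, had a log2 ratio of at most -1 and 3, PRPH, SYP and SNAP25, of at least 1, against 8.75% and 8.14% of all loci used. PRPH, a neurofilament of peripheral neurons, had 0.816 FPKM in the normal library against 4.98 FPKM in the affected one, and SYP, a synaptic vesicle protein also found in the retina, 17.4 and 53.9 FPKM. NEFM had 1.94 and 4.28 FPKM.

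STMN2, a marker of growing axons, had 13.1 and 7.05 FPKM, DBH, the noradrenaline enzyme of sympathetic nerves, 2.89 and 1.12 FPKM, and THY1, shared with fibroblasts, 30.8 and 12.7 FPKM. At the node, SPTBN4 had 2.01 and 4.34 FPKM and GLDN, the Schwann-derived gliomedin, 0.812 and 1.96 FPKM, while CADM4, the internodal adhesion protein of Schwann cells, had 54.0 and 34.9 FPKM and MPP6 5.15 and 3.58 FPKM. NFASC had 3.29 and 5.23 FPKM, and CNTN1 14.9 and 13.8 FPKM. None of the 13 node genes had a log2 ratio past 1 in either direction, although GLDN and SPTBN4 were 2.42-fold and 2.16-fold higher as plain quotients of FPKM. Of all loci used, 8.75% and 8.14% were past these limits.

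Enzymes of myelin lipids had a median log2 ratio of -0.05 over 20 used genes, near that of all loci. DHCR7, an enzyme of cholesterol synthesis, had the lowest log2 ratio of these with 9.64 and 2.97 FPKM. ASPA had 23.1 and 11.7 FPKM, and FA2H, which makes the hydroxylated lipids of myelin, 1.16 and 2.98 FPKM.

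**Figure D4:**
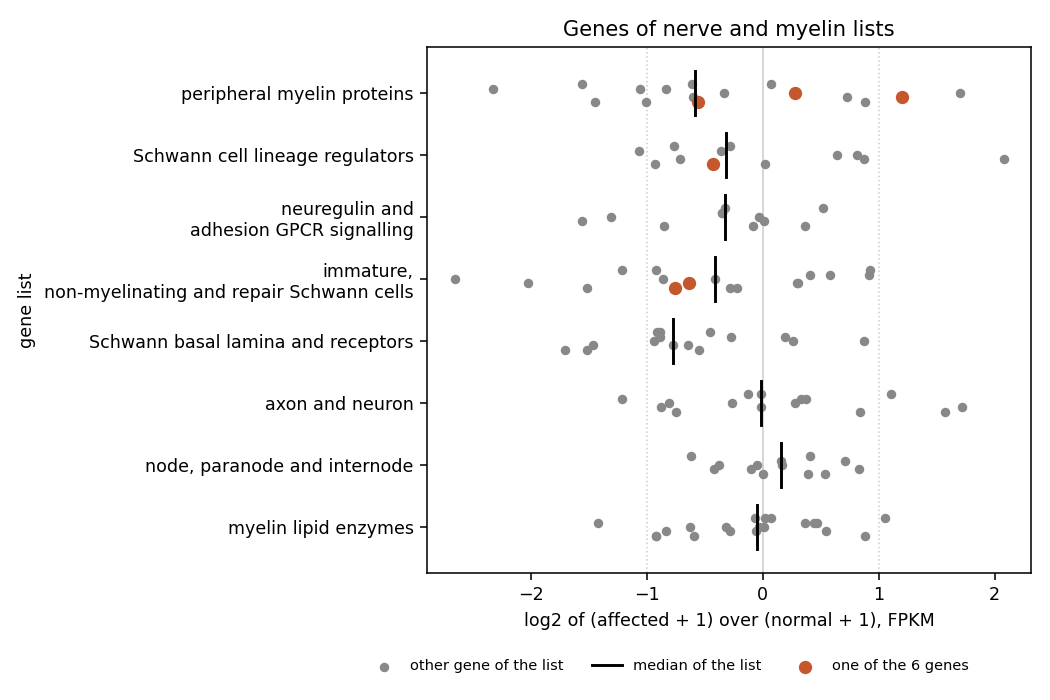
Log2 ratio of each used gene (points) in 8 lists of nerve and myelin genes, with members of the set of 6 in orange, list medians as black bars and dotted lines at log2 ratios of -1 and 1. List medians run from -0.77 for basal lamina genes to 0.16 for node genes. MBP, PRX and, narrowly, PMP22 lie to the right of the median of the peripheral myelin list.

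Relatives of the 6 genes went in both directions. In the tetraspan family of PMP22, EMP1 had 142.3 FPKM in the normal library against 19.6 FPKM in the affected one, EMP3 88.6 and 32.0 FPKM and EMP2 34.2 and 16.9 FPKM. All 3 had lower log2 ratios than PMP22, at -2.80, -1.44 and -0.97. LIM2, the lens fibre member of the family, went the other way with 107.7 and 315.2 FPKM.

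Of 11 used S100 genes, 6 were lower and 5 higher, against 50.3% of all loci used lower. On the log2 ratio 4 were at most -1 and 4 at least 1, against 8.75% and 8.14% of all loci used. S100A1, which can pair with S100B, had 46.4 and 115.8 FPKM, opposite to S100B. S100A2 and S100A14, both epithelial, had the lowest log2 ratios of the family at -2.75 and -2.41, and S100A9 and S100A12, of myeloid cells, the highest at 2.57 and 1.77.

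Of the SOX genes of the same group as SOX10, SOX9 had 7.13 and 3.40 FPKM and SOX8 4.92 and 6.0 FPKM, so that SOX10, SOX9 and SOX8 were of similar level in the normal library. Over the 7 SOX genes used, 5 were lower, against 50.3% of all loci used, and 0 had a log2 ratio past 1 in either direction, where 8.75% and 8.14% of all loci did. The family had the lowest log2 ratio for SOX9 at -0.88, whose plain quotient of FPKM was past 2-fold lower, then SOX13 at -0.77, and the highest for SOX6 at 0.30. NCAM2 had 1.74 and 0.850 FPKM. Among 16 partners and modifiers of NCAM1 including itself, GFRA1, a co-receptor of glial cell line-derived neurotrophic factor to which NCAM1 binds, had the highest log2 ratio, with 16.6 and 128.4 FPKM. FGFR1, a receptor that NCAM1 engages, had 59.0 and 188.0 FPKM. GFRA2 had 14.4 and 4.17 FPKM, and ST8SIA4, which adds polysialic acid to NCAM1, 1.77 and 0.145 FPKM.

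Periaxin also sits in a complex with ezrin, periplakin and AHNAK in the lens. EZR had 96.2 and 126.4 FPKM, PPL 11.6 and 6.64 FPKM and AHNAK 22.2 and 17.8 FPKM, so PRX and EZR were higher and PPL and AHNAK lower in the affected library. Over the 9 used genes of periaxin complexes the log2 ratios ran from -0.72 for PPL to 0.43 for SPTBN1.

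The named genes most alike in level in the 2 libraries, by distance in log2(FPKM + 1) among 11677 others, were C9orf142 for PMP22, SLC7A2 for S100B, IQCE for SOX10, MAP7 for MBP, ECE1 for NCAM1 and FAM155B for PRX. Their distances ran from 0.0091 for FAM155B to 0.036 for SLC7A2. MAP7, for example, had 25.0 and 60.1 FPKM beside the 25.0 and 58.8 FPKM of MBP. With 2 libraries such likeness rests on 2 values per gene.

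Each of the 6 genes is also expressed outside Schwann cells, and markers of several other cell types differed between the libraries. The counts of lower genes in these lists stand against 50.3% of all loci used. Pigment cell genes, beside SOX10 and S100B, were lower for 11 of 12 used genes, with summed levels of 2661 FPKM in the normal library against 1804 FPKM in the affected one. TYR, the key enzyme of melanin synthesis, had 182.7 and 26.8 FPKM and PMEL 493.0 and 134.4 FPKM. Fibroblast genes, beside PMP22, were lower for 8 of 10 used genes, and their summed level was 4422 FPKM in the normal library against 701 FPKM in the affected one without COL1A2, which is listed at 0 in the normal library and at 447.2 FPKM in the affected one. Without COL1A1 as well, the fibroblast sums were 1946 and 659.6 FPKM. Corneal and conjunctival epithelium genes were lower for 11 of 11 used genes, KRT5 among them with 106.2 and 5.76 FPKM, and summed to 738.7 and 145.9 FPKM, or 439.6 and 142.7 FPKM without KRT12. Vascular endothelium genes summed to 219.3 and 88.8 FPKM, lower for 10 of 11, and cell division genes to 178.7 and 52.9 FPKM, lower for 10 of 10, or 114.5 and 21.4 FPKM without PCNA.

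Markers of retina and lens were mostly higher in the affected library, beside MBP and PRX, where 49.7% of all loci used were higher at any size. Photoreceptor genes were higher for 9 of 9 used genes, with summed levels of 411.8 FPKM in the normal library against 1642 FPKM in the affected one. Genes of retinal glia and astrocytes were higher for 8 of 8, with 1896 and 4092 FPKM, RLBP1 among them with 184.7 and 260.8 FPKM. Much of this sum's difference came from GLUL, with 346.6 and 1981 FPKM, and the sums without it were 1549.9 and 2111 FPKM. Lens fibre genes were higher for 9 of 11, with 22010 and 37494 FPKM without CRYAA, which is listed at 0 in the affected library.

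Oligodendrocytes make the myelin of the central nervous system, and most of their markers were low or listed at 0. Of 12 such genes 9 had a row, 3 were listed at 0 in both libraries, 2 more at 0 in 1 library, and the summed level was 12.9 FPKM in the normal library against 10.3 FPKM in the affected one. MOG, restricted to central myelin, had 1.07 and 2.24 FPKM, ERMN 1.74 and 0.767 FPKM, and MYRF, listed under an older symbol, 5.14 and 0.785 FPKM. Without MYRF, the genes listed above 0 in both libraries summed to 7.74 and 9.01 FPKM, higher in the affected library. MOBP was listed at 0 and 0.507 FPKM. SOX8, which is also a member of this list, held 4.92 and 6.0 FPKM of these sums, and MBP alone had 25.0 and 58.8 FPKM.

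Beside NCAM1, precursor genes of skeletal muscle summed to 1.18 and 1.11 FPKM over 6 genes, of which PAX3, shared with the Schwann lineage list, held 0.983 and 1.01 FPKM. PAX7 had 0.0186 and 0 FPKM and MYOG was listed at 0 in both. Skeletal muscle genes summed to 37.7 and 53.8 FPKM, and smooth muscle genes to 1382 and 1178 FPKM with 5 of 9 lower, near the 50.3% of all loci used. The skeletal and smooth muscle sums turned direction without 1 gene, to 29.3 and 20.7 FPKM without CKM and to 881.4 and 979.7 FPKM without TAGLN. The precursor sums also turned direction without both MYF6 and PAX7, to 1.03 and 1.07 FPKM. The part of these other cell types in the values of the 6 genes was not tested, and the dissection and the disease cannot be told apart with 1 library per condition.

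**Figure D5:**
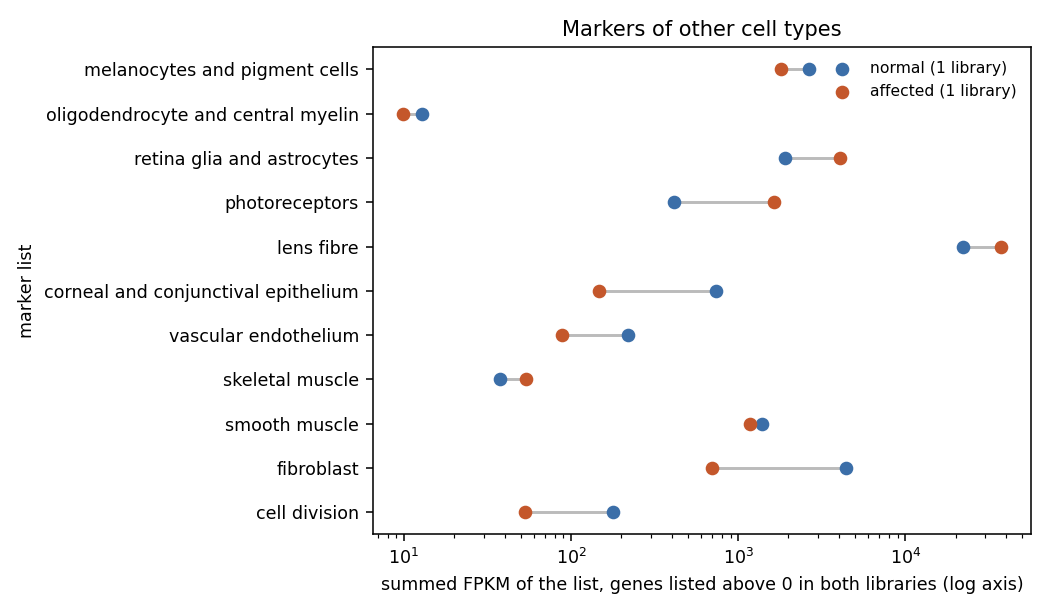
Summed FPKM of 11 marker lists of other cell types in the normal library (blue) and the affected library (orange) on a log axis, over genes listed above 0 in both libraries. Photoreceptor genes sum to 411.8 and 1642 FPKM and corneal and conjunctival epithelium genes to 738.7 and 145.9 FPKM, in opposite directions.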

How the data were processed

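RNA of 1 normal and 1 affected cat was sequenced after poly(A) selection with an unstranded kit. The authors mapped the reads with TopHat 2.0.9, guided by Ensembl gene predictions, on the felCat5 build. From the alignments the authors calculated FPKM per locus in Cufflinks 2.1.1 (bundles of up to 20000000 fragments) and cummeRbund 2.4.1, and deposited 1 FPKM value per library and locus. Scaling between libraries is not stated. Count models do not suit FPKM and were not used, and no p-value was calculated.

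Log2 ratios used a pseudocount of 1 FPKM. Names were matched exactly, a repeated name was taken from its row of highest mean, and the 817 rows that join several names were not assigned to single genes. Starts are given 1-based, since the lowest start in the table is 0. Library depth was recovered from the steps of low values at unnamed loci. Whole fragments, to within 0.03, accounted for 97.6% of values at 1399 loci of the normal library and 97.4% at 1182 loci of the affected library, against 6% for evenly spread values, at scales of about 71200000 and 67600000 fragments. Both steps were tested on simulated data.

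The 6 genes and the 25 lists were chosen with earlier results of these data known. The text names the 6 genes, defining genes of each list and the 2 at either end of the log2 ratios of each nerve, myelin and family list. CNP, PMP2, DRP2, ID2, LGI4, MOBP, COL1A2, GLUL, KRT12, COL1A1, PCNA, CKM, TAGLN, MYF6, PAX3, GJB1 and SNAP25 were named after their values were seen. Genes without a row of their own, such as NEFL, TUBB3, OLIG2, PECAM1 and ACTA1, were not analysed here. A few genes that the rule names are not reported here. The RefSeq table of a later assembly was used for names only. Alternatives were a pseudocount of 0.1, 2 rescalings, other expression minimums, summed rows, thresholds of 1.5-fold and 4-fold, and a mean in place of a median. Python 3.11.15, numpy 2.4.6, pandas 2.3.3, scipy 1.17.1 and matplotlib 3.10.9 were used.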

Additional observations from a re-analysis of the deposited data

How the results depend on the processing

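The log2 ratios of PMP22, S100B, SOX10, MBP, NCAM1 and PRX kept their sign under a pseudocount of 0.1 FPKM and both rescalings of the libraries, and none moved beyond its counting interval. The median of the 6 stayed within the counting error as well. Summing rows and other expression minimums could not change these values, since each gene has 1 row and passed every minimum. At a threshold of 1.5-fold 2 of the 6 genes, S100B and NCAM1, were lower, against 0 at 2-fold and at 4-fold, and MBP was not past 4-fold. The 1.5-fold threshold lies between the log2 ratios of NCAM1 and PMP22, below which 17.1% and 19.6% of all loci used lay. At 2-fold 8.75% of all loci used were lower, and the share past 4-fold was not calculated. The median of the peripheral myelin list was -0.71 with a pseudocount of 0.1 FPKM, -0.78 after rescaling each library to a sum of 1000000, where 17 genes were used, and -0.34 as a mean, against -0.58. Apart from the added gene, the cause was not tested. No paired analysis was possible because there was 1 library per condition, and for the same reason no library could be left out.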
